A study of Mus musculus with 6 samples.

Results

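The transcripts of 10 genes that let a cell sense foreign or misplaced nucleic acid, or sense interferon, were compared between activated mouse CD8+ T cells given sphingosine-1-phosphate (S1P) and the same kind of cells given vehicle. The genes were chosen by name: the RNA sensors Ifih1 and Dhx58, the Z-nucleic acid sensor Zbp1, the DNA sensor Cgas, the adaptors Sting1 and Mavs, both chains of the type I interferon receptor (Ifnar1 and Ifnar2) and both chains of the type II interferon receptor (Ifngr1 and Ifngr2). They are 10 of the 56941 identifiers in the count table, and all 10 were among the 13299 genes with enough counts to be tested.

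The study asked how S1P, a lipid mediator that signals through receptors on the cell surface, alters CD8+ T cells. Per the labels, naive CD8+ T cells were purified from spleens of B6 mice and were activated for 3 days on bound antibodies to CD3 and CD28 with recombinant IL-2. At 24 hours the cultures received either vehicle (3 samples) or 5 µM S1P (3 samples), so both groups carried the same activation and differed in the lipid. The labels number the samples as biological replicates 1 to 3 without saying whether each came from its own mouse or culture, so the p-values measure the spread between these samples.

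Nucleic acid sensors are proteins that bind RNA or DNA in places or shapes that healthy cells avoid, such as long duplex RNA or DNA in the cytosol, and pass a signal through adaptor proteins to kinases and transcription factors that switch on interferon genes. Secreted type I interferon binds the IFNAR1 and IFNAR2 chains, and interferon gamma binds the IFNGR1 and IFNGR2 chains, after which JAK kinases and STAT proteins raise the transcription of interferon-stimulated genes. Several sensors, among them Ifih1, Dhx58 and Zbp1, are themselves interferon-stimulated genes, and activated CD8+ T cells are a main source of interferon gamma.

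Library totals lay between 12048880 and 17384084 counts, and the 10 genes had between 98 and 2559 counts each per library. S1P replicate 2 stood apart, with 7.80% of its counts from mitochondrial genes against 4.10% to 4.93% in the other libraries, and values without it are given beside each member and as counts for the pathway lists. The cultures were labelled CD8+ T cells, and Cd8a stood at 222 ± 24.9 CPM (counts scaled to a common library size) with vehicle and 139 ± 6.59 CPM with S1P (SD, n = 3 each). Of the 7 genes listed as CD8 T cell markers, the CD8 chains Cd8a (log2 fold change -0.67, edgeR adjusted p = 0.000243) and Cd8b1 (-0.55) both fell with S1P. Cd2 rose (0.33) and 4 were not called, and those genes are shared with CD4 T cells. The 7 summed to 1301 to 1474 CPM with vehicle and 1201 to 1366 CPM with S1P, a sum that does not show the CD8 chains alone. The CD4 T cell marker Cd4 stood at 203 ± 18.4 and 218 ± 31.6 CPM and was not called. Of the 4 CD4 T cell markers Zbtb7b (0.37) and Cd40lg (0.50) rose, and the sum was 229 to 272 CPM with vehicle and 252 to 319 CPM with S1P. Of the B cell markers Ebf1 rose and Ms4a1 and Fcrla fell, and all 7 B cell markers summed to 542 to 675 CPM in vehicle libraries and 565 to 655 CPM in S1P libraries. The 8 macrophage and monocyte markers summed to 3.06 to 6.06 CPM over the libraries, with C1qa at 0, and the 6 dendritic cell markers to 4.11 to 5.996 CPM with vehicle and 7.11 to 7.54 CPM with S1P, with Clec9a at 0. The 5 NK cell markers summed to 1.57 to 3.69 CPM. Marker transcripts of CD4 T cells and B cells were thus present in every library, and the purity that the labels state was not checked beyond these markers. The methods of the study allow for cultures begun from either naive T cells or whole spleen cell suspensions, without saying which gave these libraries. The part that cells other than CD8+ T cells had in the results was not tested, and in bulk RNA fewer cells of a type cannot be told apart from less RNA per cell.

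Of the 10 genes, Dhx58, Zbp1 and Ifngr2 rose with S1P and none fell. A gene was called when its adjusted p in edgeR's quasi-likelihood test (Benjamini-Hochberg over all tested genes) was at most 0.05 and its log2 fold change was at least 0.3 in size. The 3 called higher are 30% of the members, where 12.7% of all tested genes were called higher. The 0 called lower compare with 10.4% of all tested genes, and 23.1% were called in either direction. Sting1 was lower at an adjusted p of 0.0259 and missed only the limit for fold. At an unadjusted p under 0.05, 2 members were lower (Sting1 and Ifnar2), and DESeq2 and limma-voom called 0 lower. In 5 of the 10 genes (50%) the CPM of the groups did not overlap, close to the 45.6% seen over all tested genes. The median log2 fold change was 0.15 over the members and 0.01 over all tested genes. Without S1P replicate 2, 4 members were called higher, Ifngr1 being added, and 0 lower. Without vehicle replicate 2 the counts were 4 and 1, and without S1P replicate 1 they were 3 and 1, the gene called lower being Sting1.

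**Figure D1:**
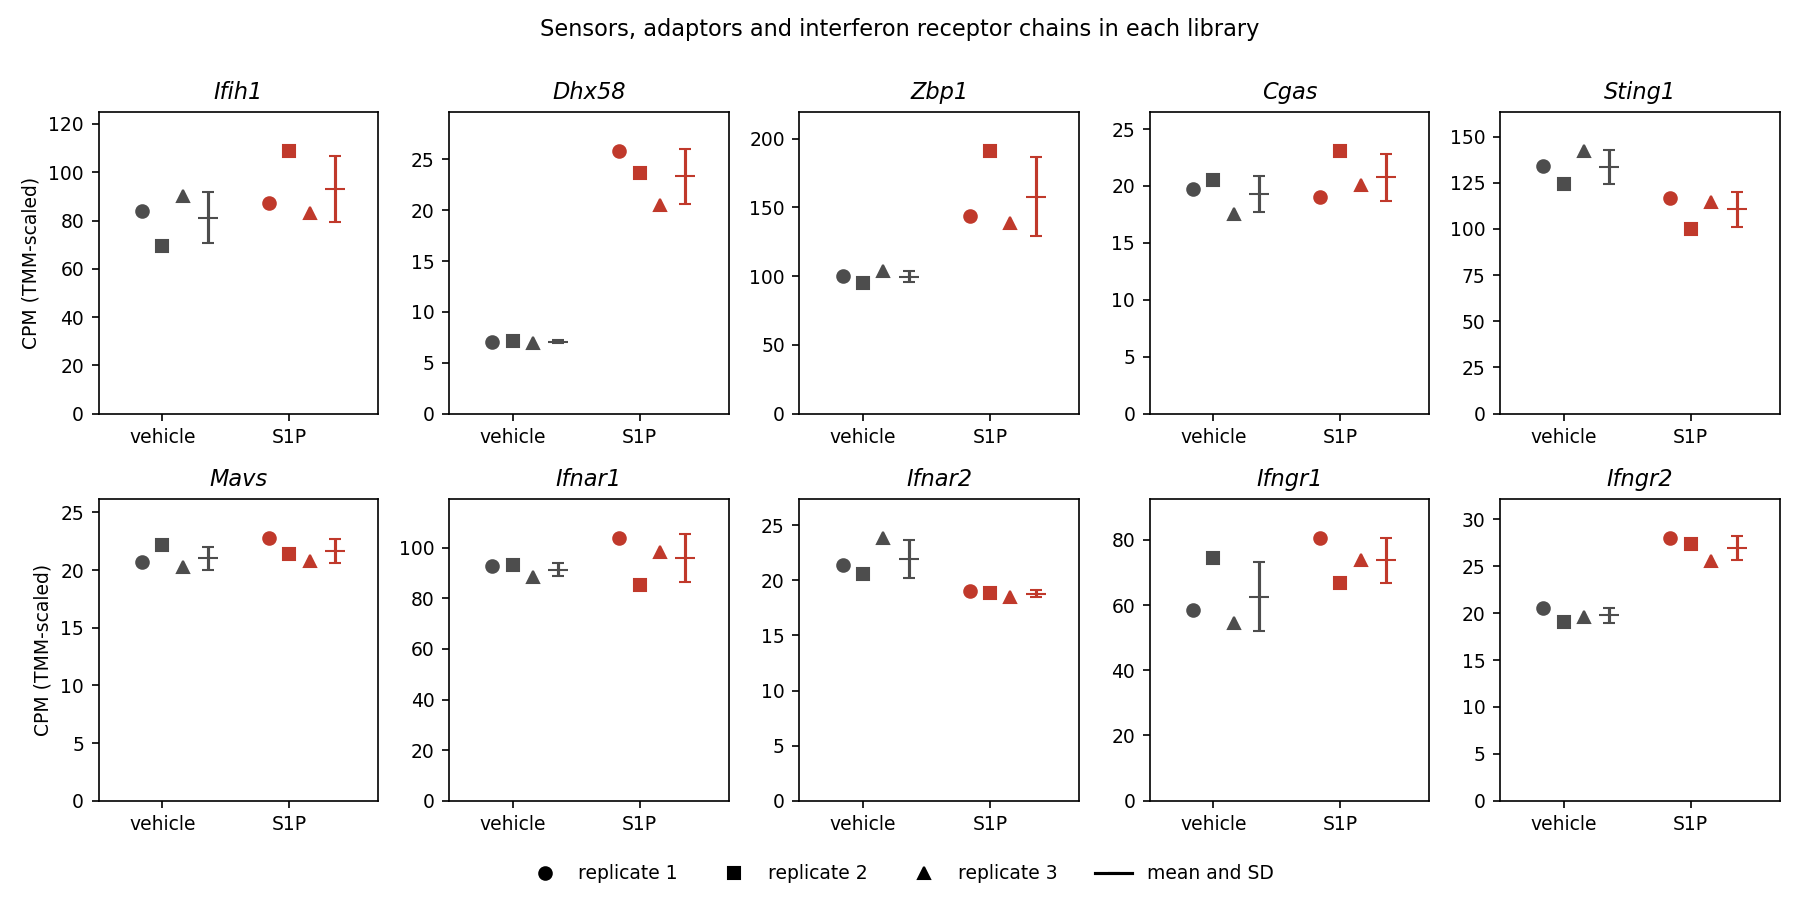
Level of each of the 10 genes in every library, as TMM-scaled CPM on linear axes from 0 (one scale per gene), with points for the 3 vehicle and 3 S1P samples and bars for the mean and SD. Dhx58 showed the widest gap as a ratio, from 6.94 to 7.19 CPM with vehicle against 20.5 to 25.8 CPM with S1P.

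Dhx58 showed the largest change of the 10 genes. It encodes LGP2, an RNA helicase that binds duplex RNA but lacks the signalling domains of its relatives, and modulates their activity. The gene (ENSMUSG00000017830) lies on the minus strand of chromosome 11, from 100585710 to 100595097 in GRCm39. With vehicle, replicates 1 to 3 had 123, 98 and 108 counts, or 7.09, 7.19 and 6.94 CPM. With S1P they had 459, 270 and 261 counts, or 25.8, 23.7 and 20.5 CPM. The vehicle libraries were nearly level and every S1P library stood far above them, with no overlap. The means were 7.07 ± 0.123 and 23.3 ± 2.69 CPM (SD, n = 3), a fold of 3.31 (log2 fold change 1.73, SE 0.12, 95% interval 1.47 to 1.98, edgeR adjusted p = 1.10e-05). The log2 fold change was 1.72 without S1P replicate 2 and lay between 1.64 and 1.80 over all 15 alternatives. Genes on the opposite strand cover 8.06% of its exon bases, and of those Dhx58os had 22 counts over the 6 libraries.

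Ifih1, by contrast, did not pass the test. It encodes MDA5, the sensor of long duplex RNA that signals through MAVS, and it lies on the minus strand of chromosome 2 (62425714 to 62476607, ENSMUSG00000026896). It had 83.8, 69.5 and 90.1 CPM with vehicle and 87.1, 109 and 83.3 CPM with S1P. The highest value was S1P replicate 2 and the lowest vehicle replicate 2, and the remaining 4 libraries lay together, so the groups overlapped. The log2 fold change was 0.19 (SE 0.11, 95% interval -0.05 to 0.44, edgeR adjusted p = 0.223), and it was 0.07 without S1P replicate 2 and 0.09 without vehicle replicate 2.

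Since the proteins of these genes serve RNA sensing together, their counts were also set against each other within each library, a ratio that does not depend on scaling between libraries. Ifih1 had 11.8, 9.66 and 13.0 counts per Dhx58 count in the vehicle libraries, and 3.37, 4.59 and 4.07 in the S1P libraries. Every S1P ratio was below every vehicle ratio. The mean ratio was 11.5 ± 1.68 with vehicle and 4.01 ± 0.612 with S1P (SD, n = 3), and the log2 difference of -1.52 had p = 0.1 in a two-sided exact permutation test, the smallest that 3 against 3 samples can give (0.333 after Benjamini-Hochberg adjustment over 5 ratios). The ratio of Ifih1 to its adaptor Mavs was 4.05, 3.14 and 4.45 with vehicle and 3.82, 5.08 and 4.00 with S1P, with overlapping groups and p = 0.6 in the same exact permutation test.

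The sequence around the start of a gene is where interferon-activated transcription factors can bind. Promoters were taken from the RefSeq promoter table (GRCm38.p6, 250 bases before the start to 50 after it). Those searched belong to Ifih1, Cgas, Mavs, Ifnar1, Ifnar2, Ifngr1 and Ifngr2, 7 of the 10 genes. Dhx58 and Zbp1 had no entry. Sting1 was left out of the search, so whether its promoter holds either motif below was not tested. Each promoter was searched on both strands for the core of the interferon-stimulated response element (GAAA, any pair of bases, then GAAA) and for the gamma-activated sequence TTCNNNGAA, which reads the same on both strands. The first was in 1 of the 7 promoters (Ifih1) and in 3.44% of all 32851 promoters, and the second in 2 of the 7 (Ifnar1 and Ifnar2) and in 8.30% of all. The Ifih1, Ifnar1 and Ifnar2 promoters are shown because each holds one of these motifs and the Ifngr2 promoter because it is the only called member in the table and holds neither. Capitals mark the match, which begins 33 bases after the start in Ifih1, 5 bases before it in Ifnar1 and 214 bases before it in Ifnar2.
Ifih1, chr2:62646206-62646505, minus strand: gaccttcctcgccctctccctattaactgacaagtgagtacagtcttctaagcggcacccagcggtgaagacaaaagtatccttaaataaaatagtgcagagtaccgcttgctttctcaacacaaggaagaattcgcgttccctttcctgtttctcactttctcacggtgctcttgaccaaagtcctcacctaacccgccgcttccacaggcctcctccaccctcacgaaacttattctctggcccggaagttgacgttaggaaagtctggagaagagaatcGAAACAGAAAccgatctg
Ifnar1, chr16:91484965-91485264, plus strand: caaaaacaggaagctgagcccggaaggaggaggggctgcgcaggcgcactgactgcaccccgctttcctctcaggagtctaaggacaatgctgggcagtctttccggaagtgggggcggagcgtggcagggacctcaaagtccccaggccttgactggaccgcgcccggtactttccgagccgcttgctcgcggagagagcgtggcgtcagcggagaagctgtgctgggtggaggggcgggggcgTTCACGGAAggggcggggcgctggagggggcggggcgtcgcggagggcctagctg
Ifnar2, chr16:91372533-91372832, plus strand: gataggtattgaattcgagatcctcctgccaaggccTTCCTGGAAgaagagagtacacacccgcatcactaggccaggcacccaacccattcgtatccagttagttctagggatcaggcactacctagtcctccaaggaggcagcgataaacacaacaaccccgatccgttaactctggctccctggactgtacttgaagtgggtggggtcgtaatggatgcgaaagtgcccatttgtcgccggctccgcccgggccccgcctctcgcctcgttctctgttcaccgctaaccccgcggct
Ifngr2, chr16:91546809-91547108, plus strand: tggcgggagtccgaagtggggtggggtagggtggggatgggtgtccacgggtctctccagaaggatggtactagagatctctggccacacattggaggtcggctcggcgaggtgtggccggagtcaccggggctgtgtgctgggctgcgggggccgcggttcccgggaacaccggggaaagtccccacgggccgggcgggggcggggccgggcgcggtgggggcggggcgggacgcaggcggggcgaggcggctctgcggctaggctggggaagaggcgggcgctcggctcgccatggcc
The letters are a description of these windows. The gene with a response element core, Ifih1, was not called and Ifngr2 was, while the called Dhx58 and Zbp1 had no promoter to search. Whether the motifs relate to the calls was not tested.

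Zbp1 was the second called gene by size. It encodes a sensor of left-handed (Z-form) nucleic acid that can start necroptosis and inflammatory signalling, and it lies on the minus strand of chromosome 2 (173033815 to 173060724, ENSMUSG00000027514). It had 1734, 1299 and 1612 counts with vehicle (99.96, 95.3 and 104 CPM). With S1P it had 2559, 2177 and 1763 counts (144, 191 and 138 CPM). All S1P libraries were above all vehicle libraries, and S1P replicate 2 was the highest. The means were 99.6 ± 4.19 and 158 ± 28.9 CPM (SD, n = 3), a fold of 1.58 (log2 fold change 0.66, SE 0.11, 95% interval 0.42 to 0.90, edgeR adjusted p = 0.00117). Without S1P replicate 2 the log2 fold change was 0.50 (SE 0.06, adjusted p = 3.74e-05).

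The DNA-sensing pair, Cgas and Sting1, did not meet both thresholds. Cgas encodes the enzyme that makes a cyclic dinucleotide when it binds DNA in the cytosol, and lies on the minus strand of chromosome 9 (78337802 to 78350535, ENSMUSG00000032344). It stood at 19.8, 20.5 and 17.6 CPM with vehicle and 19.1, 23.1 and 20.1 CPM with S1P. The groups overlapped, with a log2 fold change of 0.10 (SE 0.11, 95% interval -0.13 to 0.33, edgeR adjusted p = 0.512), and it was 0.02 without S1P replicate 2. A gene on the opposite strand, not in the count table, covers 34.4% of its exon bases, and 35.9% of its 31-base stretches also occur in other genes, so its counts are uncertain.

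Sting1 encodes the adaptor that binds that dinucleotide and recruits the kinase TBK1, and lies on the minus strand of chromosome 18 (35866732 to 35873607, ENSMUSG00000024349). Its levels were 134, 124 and 142 CPM with vehicle and 117, 99.8 and 115 CPM with S1P. Every S1P library was below every vehicle library, and S1P replicate 2 was the lowest. The means were 134 ± 8.99 and 111 ± 9.40 CPM (SD, n = 3). The log2 fold change of -0.27 (SE 0.08, 95% interval -0.45 to -0.10) had an edgeR adjusted p of 0.0259, below the limit for p, but its size was under the limit for fold. It was -0.20 without S1P replicate 2 and would be called lower without vehicle replicate 2 (-0.32, adjusted p = 0.0343) or without S1P replicate 1 (-0.32, adjusted p = 0.0171). The adjusted p ran from 0.00631 to 0.123 over the alternatives.

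The count of Cgas per Sting1 count was 0.147, 0.165 and 0.123 with vehicle and 0.163, 0.231 and 0.175 with S1P. The groups overlapped by 1 library on each side, and the log2 difference of 0.38 had p = 0.2 in a two-sided exact permutation test (0.333 adjusted over the 5 ratios). The difference was 0.23 without S1P replicate 2.

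Mavs, the mitochondrial adaptor that both RIG-I and MDA5 use, was the steadiest of the 10 genes by fold. It lies on the plus strand of chromosome 2 (131075442 to 131096740, ENSMUSG00000037523). It had 20.7, 22.2 and 20.3 CPM with vehicle and 22.8, 21.4 and 20.8 CPM with S1P, with overlapping groups. The log2 fold change was 0.05 (SE 0.09, 95% interval -0.15 to 0.24, edgeR adjusted p = 0.730) and 0.06 without S1P replicate 2, an interval that leaves room for a change of at most 0.24 upward or 0.15 downward on the log2 scale.

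**Figure D2:**
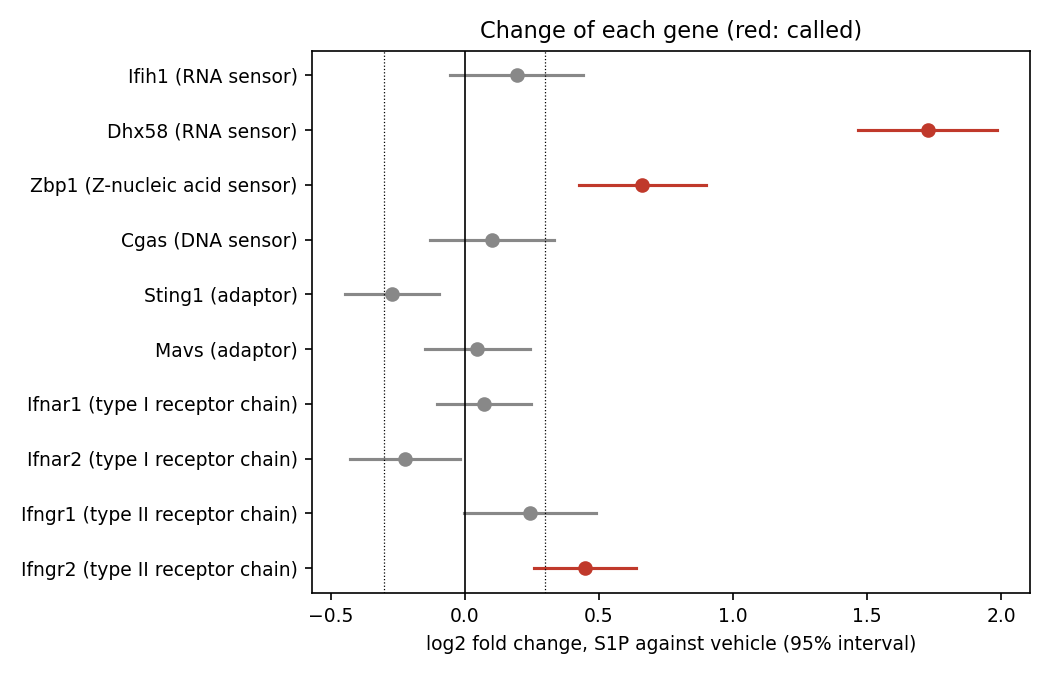
Log2 fold change of S1P over vehicle for each of the 10 genes, with bars for the 95% interval and dotted lines at the fold limit of 0.3 in either direction. The intervals of Dhx58 and Zbp1 lie wholly above 0.3, while that of Ifngr2 reaches down to 0.26.

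The type I receptor chains were not called. Ifnar1, the signal-passing chain, is on the plus strand of chromosome 16 (91281942 to 91305789, ENSMUSG00000022967). It had 92.6, 93.4 and 88.3 CPM with vehicle and 104, 85.4 and 98.5 CPM with S1P, the groups overlapping and S1P replicate 2 being the lowest of all 6. Its log2 fold change was 0.07 (SE 0.08, 95% interval -0.10 to 0.25, edgeR adjusted p = 0.533), and 0.15 without S1P replicate 2. Ifnar2, the chain that binds interferon more tightly, lies on the same strand of that chromosome (91169618 to 91202723, ENSMUSG00000022971). Its levels were 21.4, 20.5 and 23.9 CPM with vehicle and 19.1, 18.9 and 18.4 CPM with S1P. The S1P libraries lay close together and below every vehicle library, yet the log2 fold change of -0.22 (SE 0.09, 95% interval -0.43 to -0.02) did not pass (edgeR adjusted p = 0.0972). It was also -0.22 without S1P replicate 2. A readthrough gene on its strand, at 0 counts in the table, covers 20% of its exon bases. How reads over shared exons were counted is not stated, so the counts of Ifnar2 are uncertain.

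The number of Ifnar1 counts per Ifnar2 count was 4.33, 4.55 and 3.70 with vehicle and 5.45, 4.53 and 5.34 with S1P. S1P replicate 2 fell within the vehicle range, and the log2 difference of 0.28 had p = 0.2 in a two-sided exact permutation test (0.333 adjusted over the 5 ratios).

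Of the type II receptor chains, Ifngr2 rose and Ifngr1 was not called. Ifngr2 is the chain that completes the receptor and brings in JAK2, and in T cells its amount is known to set how strongly interferon gamma is felt. It lies on the plus strand of chromosome 16 (91343906 to 91362512, ENSMUSG00000022965). It had 357, 260 and 305 counts with vehicle (20.6, 19.1 and 19.6 CPM). With S1P it had 498, 312 and 325 counts (28.0, 27.4 and 25.5 CPM). The groups were well apart, S1P replicate 2 included. The means were 19.8 ± 0.765 and 27.0 ± 1.30 CPM (SD, n = 3), a fold of 1.37 (log2 fold change 0.45, SE 0.09, 95% interval 0.26 to 0.64, edgeR adjusted p = 0.0031). It was 0.44 without S1P replicate 2 and lay between 0.42 and 0.48 over the alternatives.

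Ifngr1, the chain that binds interferon gamma, lies on the plus strand of chromosome 10 (19467697 to 19485977, ENSMUSG00000020009). Its levels were 58.6, 74.6 and 54.6 CPM with vehicle and 80.6, 66.8 and 73.8 CPM with S1P. Vehicle replicate 2 was above S1P replicates 2 and 3, so the groups overlapped, and the log2 fold change was 0.24 (SE 0.11, 95% interval -0.0036 to 0.49, edgeR adjusted p = 0.129). The call turned on single libraries: the gene was called higher without vehicle replicate 2 (0.38, adjusted p = 0.0254) and without S1P replicate 2 (0.31, adjusted p = 0.0370).

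Both chains were therefore compared directly. Ifngr1 had 2.85, 3.91 and 2.78 counts per Ifngr2 count with vehicle and 2.88, 2.44 and 2.89 with S1P. The groups overlapped, and the log2 difference of -0.20 had p = 0.6 in a two-sided exact permutation test, which cannot go below 0.1 here. The difference ran from -0.29 to -0.05 by the library left out.

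**Figure D3:**
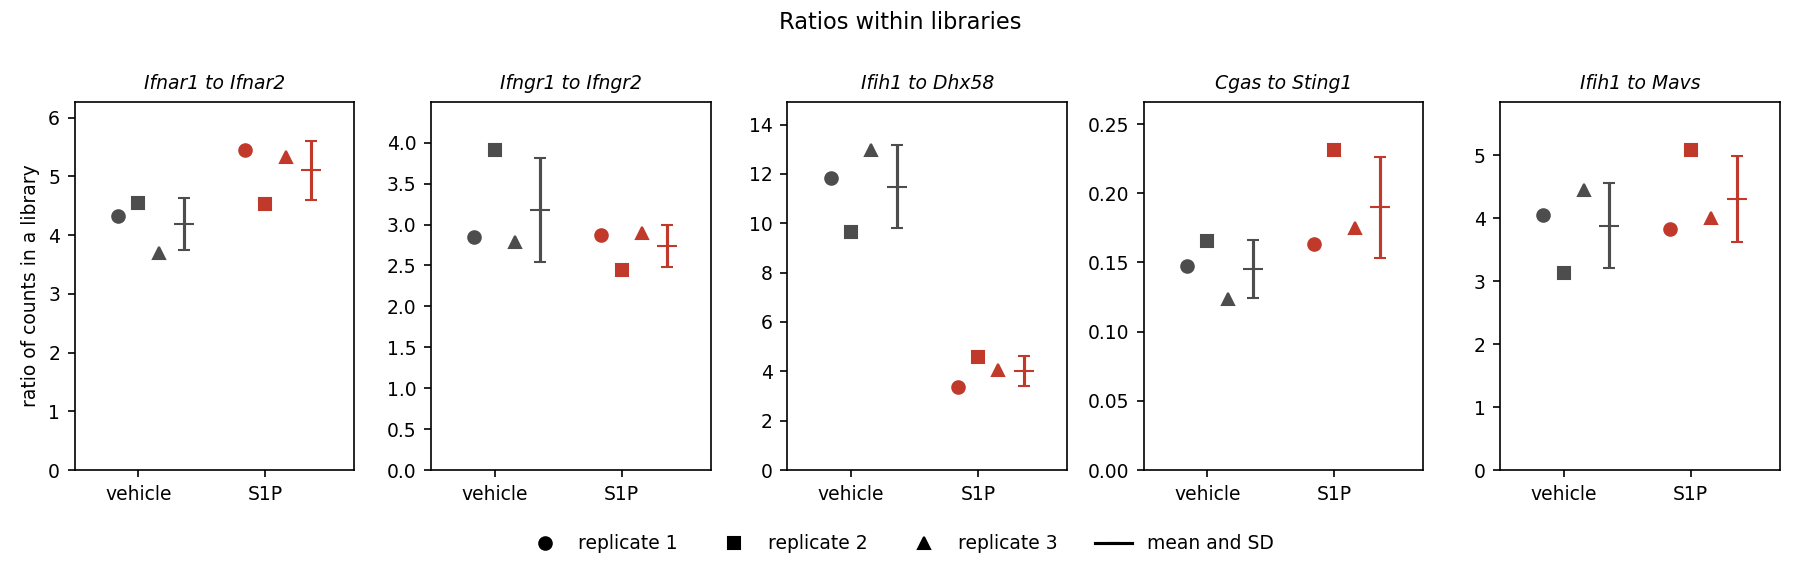
Within-library ratios of counts for the 5 pairs of genes, on linear axes from 0, with points for the 3 vehicle and 3 S1P libraries and bars for the mean and SD. The groups are apart for Ifih1 to Dhx58 (9.66 to 13.0 against 3.37 to 4.59) and overlap for the other pairs.

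Levels were compared between genes per length, as RPKM (CPM divided by exon length in kilobases). With vehicle, Sting1 was the most abundant at 41.9 ± 2.82 RPKM (SD, n = 3), followed by Zbp1 at 23.2 ± 0.976 and Ifngr1 at 21.98 ± 3.72, whose ranges overlapped. Below them stood Ifnar1 (11.3 ± 0.340), Ifih1 (9.02 ± 1.18), Ifnar2 (5.86 ± 0.460), Ifngr2 (4.37 ± 0.170) and Cgas (3.71 ± 0.299 RPKM), each without overlap with its neighbour. Dhx58 (2.10 ± 0.0365) and Mavs (1.85 ± 0.0874 RPKM) were lowest.

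With S1P, Zbp1 (36.8 ± 6.74 RPKM) and Sting1 (34.7 ± 2.95 RPKM) were the highest and overlapped. Ifngr1 followed at 25.9 ± 2.43 RPKM, then Ifnar1 (11.8 ± 1.17) and Ifih1 (10.4 ± 1.53 RPKM), which overlapped each other. Dhx58, at 6.92 ± 0.796 RPKM, moved from place 9 to place 6 and overlapped Ifngr2 (5.97 ± 0.288). Ifnar2 (5.02 ± 0.0851), Cgas (4.00 ± 0.401) and Mavs (1.91 ± 0.0894 RPKM) closed the order. These are orders of means, and the length used shifts the values more than the spread between replicates for every gene but Cgas.

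**Figure D4:**
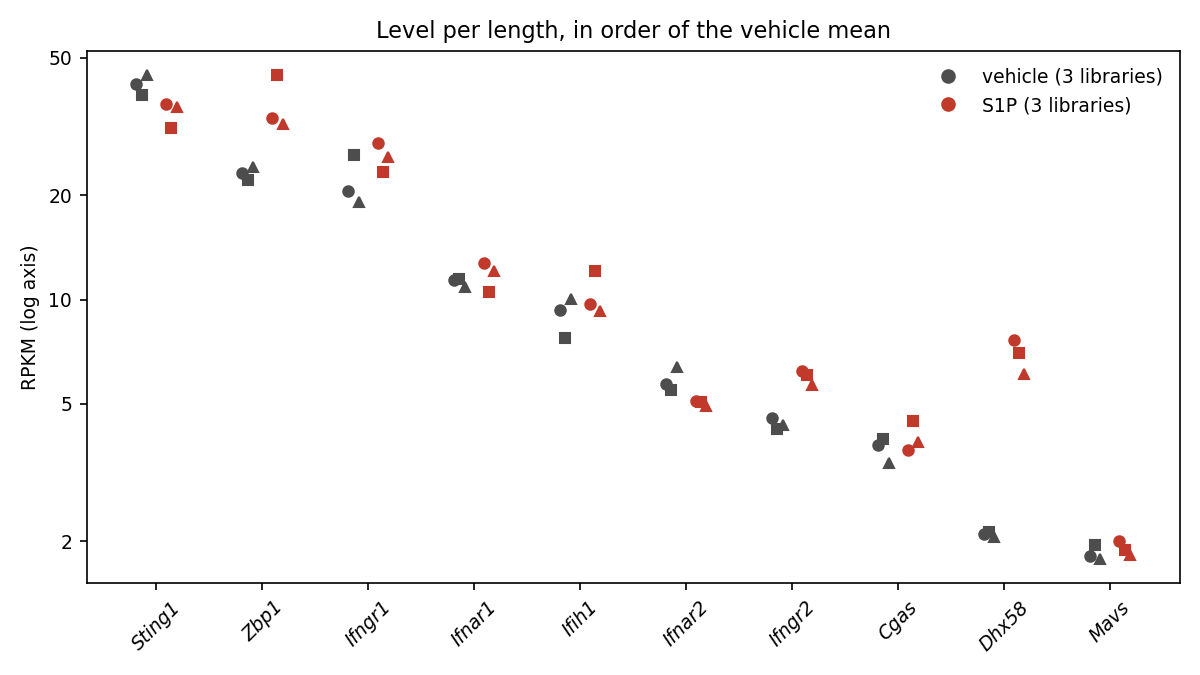
Level of each of the 10 genes per length, as RPKM on a log axis, in the 3 vehicle and 3 S1P libraries, ordered by the vehicle mean. Sting1 leads with vehicle (41.9 RPKM) and Mavs is last (1.85 RPKM), and on this log axis Dhx58 shows the widest step between the groups.

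The genes whose pattern over the 6 libraries was most like that of each called member were found by the root mean square difference of centred log2 CPM, among 11068 genes, and these are descriptions. For Dhx58 they were Atf3 (0.083), a stress-induced transcription factor, Cxcl10 (0.12), an interferon-induced chemokine, and Slc7a11 (0.13), a cystine transporter, with log2 fold changes of 1.65, 1.66 and 1.65. For Zbp1 they were Zup1 (0.044), Sp100 (0.052), a component of nuclear bodies, and Chd2 (0.061), a chromatin remodeller, with log2 fold changes of 0.70, 0.74 and 0.65. For Ifngr2 they were Mbnl2 (0.024), a splicing regulator, Chd6 (0.030), a chromatin remodeller, and Rnf114 (0.032), a ubiquitin ligase, with log2 fold changes of 0.43, 0.41 and 0.43.

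Other genes of the same pathways were taken from 8 lists of 114 genes, of which 112 matched the annotation and 90 were tested. Of these 25 were called higher (27.8%), 8 lower (8.89%) and 57 neither, and their median was 0.04 (log2). Over all tested genes 12.7% were called higher and 10.4% lower, with a median of 0.01, and the share called lower is close to that of all genes. Without S1P replicate 2, 21 were called higher and 7 lower. The lists then had 7 higher and 2 lower (RNA sensors), 2 and 2 (DNA sensors) and 3 and 1 (adaptors, ligases and kinases), and the other lists had the counts given below.

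Of 15 tested sensors of RNA and of Z-nucleic acid other than the members, 8 rose, 2 fell and 5 were not called, with a median of 0.60. Ifit1, which binds RNA that lacks a normal cap, rose most, from 3.30 ± 0.315 to 16.7 ± 3.40 CPM (SD, n = 3, log2 fold change 2.33, SE 0.18). Oas2 (1.61) and Ddx60 (1.53) were next. Rigi, the close relative of Ifih1, rose from 22.3 ± 1.12 to 42.2 ± 9.64 CPM (0.92, edgeR adjusted p = 0.000761, and 0.74 without S1P replicate 2), and the duplex RNA-activated kinase Eif2ak2 rose by 1.03. The helicases Dhx33 (-0.64) and Dhx9 (-0.32) fell, the latter without a call when S1P replicate 1 was left out (-0.26) or with upper-quartile factors (-0.297).

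Of 11 tested DNA sensors, 4 rose, 2 fell and 5 were not called, with a median of 0.10. The interferon-inducible Ifi204 (2.03) and Ifi203 (0.78) rose, although 34.5% and 25.5% of their 31-base stretches also occur in related genes, so their counts are uncertain. Lrrc8a (0.48), a channel subunit that can carry cyclic dinucleotides, lost its call in 7 of the 15 alternatives, and 48.6% of its 31-base stretches also occur in other genes, so its counts are uncertain too. The list's count of genes that rose was 2 without vehicle replicate 1, 2 or 3 or without S1P replicate 2 or 3. Ddx41 (-0.42) and Xrcc5 (-0.31) fell, Xrcc5 without a call when vehicle replicate 3 (-0.27) or S1P replicate 1 (-0.24) was left out or with upper-quartile factors (-0.284). Aim2, the DNA sensor of the inflammasome, was at 0.28 (edgeR adjusted p = 0.128), and 0.39 with a call without S1P replicate 1 and 0.09 without S1P replicate 2.

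Of 26 adaptors, ligases and kinases below the sensors, 4 rose (15.4%), 2 fell (7.69%) and 20 were not called, with a median of -0.02. These shares are close to those over all tested genes (12.7% and 10.4%). Irf7, the transcription factor that amplifies type I interferon, rose from 2.73 ± 0.398 to 15.6 ± 2.70 CPM (2.52, edgeR adjusted p = 1.1e-05), and the ubiquitin ligases Trim56 (0.57) and Trim25 (0.41), which assist STING and RIG-I, also rose. Myd88 (-0.44), the adaptor of most Toll-like receptors, and Traf3 (-0.33) fell, Traf3 without a call when S1P replicate 2 was left out (-0.25). The kinase Tbk1 was at 0.09 (adjusted p = 0.479, and -0.0095 without S1P replicate 2) and Irf3 at -0.21 (adjusted p = 0.0788). Of 6 cell death partners of Zbp1, 1 rose (16.7%, close to the 12.7% over all tested genes) and 0 fell. The count that rose was 2 without S1P replicate 1 and with upper-quartile factors. The count that fell was 1 with no filter on low counts. The gene that rose was Casp6 (0.82), while Ripk3 was at -0.00079 (edgeR adjusted p = 0.996) and Mlkl at 0.32 (adjusted p = 0.0929). Without S1P replicate 2 these were 0.12 and 0.21.

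Of 11 tested genes that clear or edit nucleic acid, Samhd1 rose by 0.33 (edgeR adjusted p = 0.00412, without a call at 0.298 with total count scaling and 0.295 with no filter on low counts) and Slc19a1, a folate carrier that also imports cyclic dinucleotides, fell by 0.80 on the log2 scale. The list's count of genes that fell was 1, and 2 without S1P replicate 3, with DESeq2, with total count scaling, with no filter on low counts and with no fold threshold. Adar was at 0.07 (edgeR adjusted p = 0.577), and 0.15 without S1P replicate 2. Over all 15 alternatives it lay between -0.035 and 0.15 and was never called. Trex1 was listed at 0 in every library, and all of its exon bases also lie in another gene of the same strand.

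Of 16 genes of interferon receptor signalling, 6 rose, 0 fell and 10 were not called, with a median of 0.06. In 6 of the 15 alternatives, among them DESeq2 and leaving out vehicle replicate 2 or S1P replicate 3, 1 gene of this list was called lower. Ptpn11, a phosphatase named here after its values were seen, was at -0.28 (edgeR adjusted p = 0.0069), short of the limit for fold. Usp18, the brake that binds IFNAR2, rose by 1.05, Stat2 by 0.92 (from 61.0 ± 3.74 to 115 ± 10.6 CPM) and Socs3, an inhibitor of cytokine signalling, by 0.84. Jak2, the kinase bound by IFNGR2, rose by 0.81, from 427 ± 43.1 to 751 ± 64.1 CPM, and Irf9 by 0.56. Jak1 (0.11, edgeR adjusted p = 0.219) and Tyk2 (-0.07, adjusted p = 0.594, and -0.0041 without S1P replicate 2) did not pass.

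**Figure D5:**
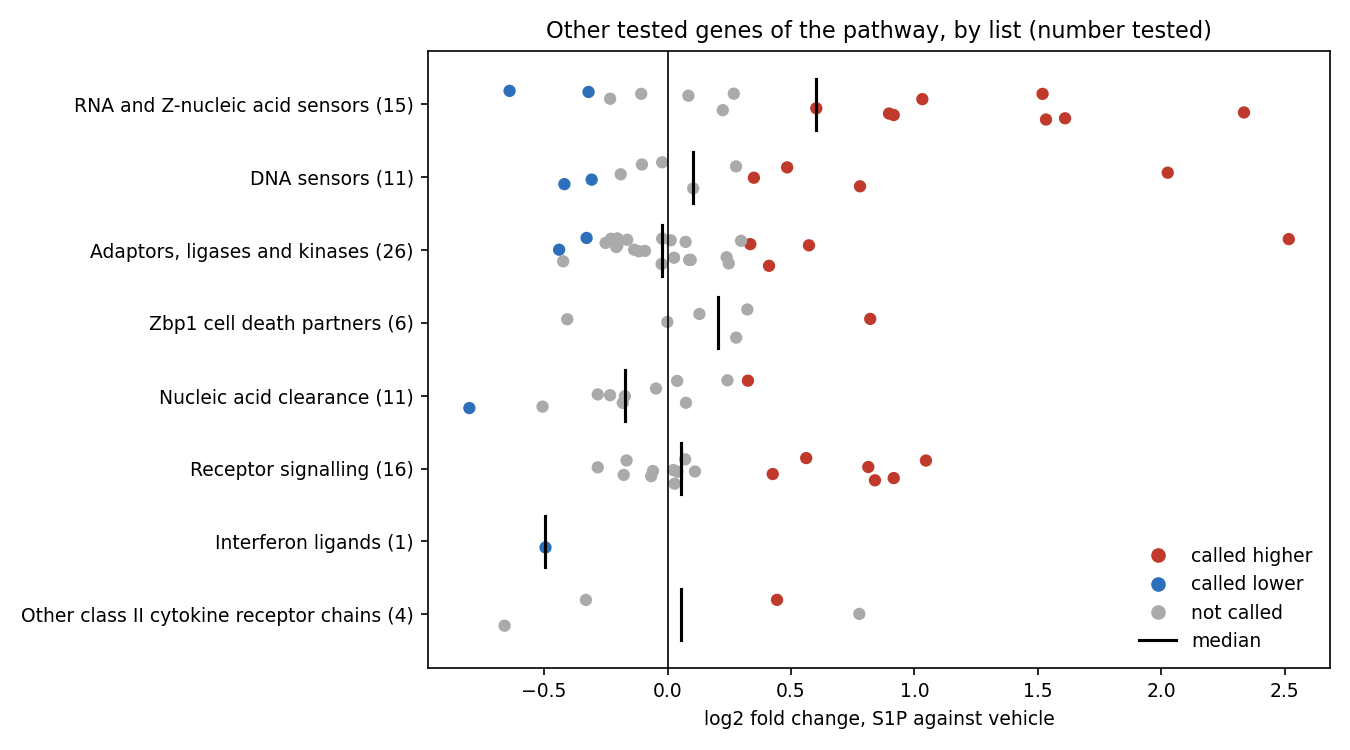
Log2 fold change of S1P over vehicle for the 90 tested pathway genes, grouped by list, with genes called higher in red, called lower in blue and not called in grey, and a line at each median. Called genes above 0 outnumber those below for RNA sensors (8 against 2), receptor signalling (6 against 0), and DNA sensors and adaptors (4 against 2 each). The adaptor shares (15.4% higher, 7.69% lower) are close to those over all tested genes (12.7% and 10.4%). For DNA sensors the counts were 2 against 2 without S1P replicate 2. They are 1 against 0 for Zbp1 partners and for class II receptor chains. For nucleic acid clearance they are 1 against 1, and for ligands 0 against 1.

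Among the ligands, Ifng fell from 210 ± 10.3 to 149 ± 17.8 CPM (SD, n = 3, log2 fold change -0.50, edgeR adjusted p = 0.00162), although a gene of its own strand covers 25.9% of its exon bases. The 10 type I and type III interferon genes that were listed, which are not all of the family, had at most 3 counts in any library, 4 of them (Ifnb1, Ifna5, Ifne and Ifnl3) had 0 counts in every library, and together they had 3 counts over the vehicle libraries and 15 over the S1P libraries. A count of 0 allows up to 3 counts, or 0.169 to 0.263 CPM by library, for counting error only. Of the 31-base stretches of Ifna1, Ifnz, Ifna5 and Ifnl3, 88.3%, 83.4%, 74.3% and 51.8% also occur in other genes, so their counts are uncertain. Among the other class II cytokine receptor chains, which are relatives of the interferon receptor chains, Il10ra rose by 0.44 (adjusted p = 0.00331).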

How the data were processed

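The deposited file was a table of counts per gene, made by the authors from strand-specific poly(A) libraries. Per the labels the tools were Trim Galore, STAR and featureCounts on GRCm39; their versions, the annotation release and the strand setting are not given in the sources used here. Identifiers were matched to GENCODE release M39 (56323 of 56941). Totals per library ranged from 12048880 to 17384084.

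From these counts, R 4.3.3 with edgeR 4.0.16 was used: filterByExpr, TMM factors, and the quasi-likelihood test, its p-values adjusted by Benjamini-Hochberg across the 13299 genes tested. Calls needed adjusted p of 0.05 or less and a log2 fold change of 0.3 or more in size. The SE is the fold change divided by the square root of F. RPKM used exon union lengths. Ratios were tested by an exact permutation test. For likeness, 2 was the prior count behind log2 CPM, and genes averaging under 1 were left out. Alternatives were DESeq2 1.42.0, limma-voom (limma 3.58.1), other scalings, filters and thresholds, a replicate block and leaving out each library. The script was tested on simulated data. Named were all members, in each of the 8 lists the called genes (at most the 3 highest and 3 lowest), a fixed set of core genes, and the 3 genes most like each called member. A gene of the core set is not reported here. The members and lists, with 7 marker lists, were chosen with earlier results of these data known. Replicates were not duplicates: pairs differed by a chi-square per gene of at least 3.77. The pairs with S1P replicate 2 differed most, at 31.4 (with S1P replicate 1) and 17.9 (with S1P replicate 3), against at most 5.97 in the other pairs.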

Additional observations from a re-analysis of the deposited data

How the results depend on the processing

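The 3 members called higher (Dhx58, Zbp1 and Ifngr2) were called under each of the 15 alternatives, and no called result turned direction. The count called higher ranged from 3 to 4 when each library was left out in turn, with Ifngr1 as the gene added. The count called lower was 0, but 1 (Sting1) with no fold threshold, and 0 to 1 when libraries were left out, being 1 without vehicle replicate 2 and without S1P replicate 1. Over the pathway lists, 21 to 27 genes were called higher and 6 to 10 lower when libraries were left out, and 23 to 27 and 6 to 11 under the other settings. With the replicate number as a block, 3 members were called higher and 0 lower, 25 and 8 pathway genes, and 1697 and 1423 of all genes against 1687 and 1384 without it, so the block changed no call among the members or the named pathway genes. Same-numbered deviations correlated at 0.12, -0.01 and 0.05. Vehicle replicate 2 correlated best with another number, and vehicle replicate 3 nearly equally with S1P replicates 2 (0.0496) and 3 (0.0483). With no reference for such values, they cannot tell whether same-numbered samples share a source. Pairing the ratios by number leaves their mean differences unchanged by arithmetic, so it is no check on them, and the smallest possible exact permutation p is then 0.25. The ratio differences ranged over left-out libraries from 0.20 to 0.37 (Ifnar1 to Ifnar2), -0.29 to -0.05 (Ifngr1 to Ifngr2), -1.64 to -1.40 (Ifih1 to Dhx58), 0.23 to 0.48 (Cgas to Sting1) and 0.0082 to 0.26 (Ifih1 to Mavs). With the longest transcript as length, the order of the 10 levels was as with exon union length in both groups, for instance 47.3 RPKM for Sting1 and 2.87 for Dhx58 with vehicle. The promoter table holds 1 window, so no other window was run. The causes of these shifts were not tested.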
